A study of Mus musculus with 9 samples.

Results

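Aminoacyl-tRNA synthetases join each amino acid to its transfer RNA (tRNA), the step that supplies the ribosome. Most animal cells use separate nuclear genes for the enzymes of the cytosol and of mitochondria, and several cytosolic enzymes sit together in the multi-synthetase complex on the scaffold proteins Aimp1, Aimp2 and Eef1e1. The acinar cell of the pancreas makes digestive enzymes at a very high rate and so depends heavily on charged tRNA. Cytosolic synthetase genes are also known targets of ATF4, the transcription factor of the amino acid response.

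The 36 synthetase genes described here were taken by symbol from a table of 17132 genes, and are 20 cytosolic and 16 mitochondrial members (symbols ending in 2). All 36 were in the table and all 36 passed the filter on low counts, under which 12828 genes were tested. They were measured in whole pancreas of 9 wild-type C57BL/6 mice, 3 in each group. QYD mice had acute pancreatitis set off by 7 hourly intraperitoneal doses of caerulein, an analogue of cholecystokinin, and lipopolysaccharide (LPS) given with the last of them. They were dosed with the herbal mixture Qingyi Decoction at 0 and 8 h. Model mice received the same caerulein and LPS, with saline in place of the decoction. Control mice received saline only. Caerulein is given as 50 mg/kg in the submitters' design text, and tissue was taken at 24 h. The decoction group is spelled QYD in the sample titles and QTD in the treatment label. Each library comes from a separately numbered animal, and age is not among the labels used here.

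The libraries held 19112923 to 20212744 estimated counts, but their composition differed. The 50 most abundant genes took 68.9% ± 3.18 of counts in QYD, 66.7% ± 3.08 in Model and 90.8% ± 0.306 in Control (SD, n = 3 each). The 16 acinar markers were present in every library. Their summed level was 205655 to 210911 CPM (counts scaled to the library total) in QYD, 225028 to 249084 in Model and 287132 to 361916 in Control. Neutrophil markers summed to 191.1 to 319.4 CPM in QYD, 173.0 to 295.6 in Model and 3.46 to 13.6 in Control. In bulk tissue, fewer cells of a type and less RNA per cell cannot be told apart.

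This composition affects fold changes against Control, so 2 scales are given. Trimmed mean of M-values (TMM) scaling sets the typical gene near no change, with a median log2 fold change over all genes of 0.04 for Model versus Control and 0.06 for QYD versus Control. On library totals alone the same medians were 2.19 and 2.09. A member that is lower on the TMM scale and higher on library totals therefore rose less than the typical gene when it is counted as a share of the library.

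As a share of all counts, synthetase transcripts stood higher in both groups given caerulein and LPS. The 20 cytosolic genes together took 0.122%, 0.107% and 0.0978% of counts in the QYD libraries, 0.136%, 0.126% and 0.118% in the Model libraries, and 0.0386%, 0.0412% and 0.0334% in the Control libraries. Each QYD and Model library lay above each Control library. The 16 mitochondrial genes together took 0.0112% ± 0.00191 in QYD, 0.0121% ± 0.00133 in Model and 0.00336% ± 0.000469 in Control. When the 50 most abundant genes were left out of the total, neither group mean stood above that of Control. The cytosolic share was then 0.351% ± 0.00354 in QYD, 0.380% ± 0.0168 in Model and 0.409% ± 0.0463 in Control, and the mitochondrial share was 0.0358%, 0.0362% and 0.0363% in the same order. No test was run on these sums.

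The ratio of cytosolic to mitochondrial synthetase counts within a library does not depend on the scaling between libraries. It was 9.28, 9.71 and 10.5 in QYD, 10.0, 10.7 and 10.8 in Model, and 13.2, 10.7 and 10.1 in Control. The groups overlap, and Control 43 alone holds the high value. With summed FPKM, which is scaled by gene length and library total, in place of counts, the ratio averaged 9.14 ± 0.340 in QYD, 9.75 ± 0.383 in Model and 9.84 ± 1.32 in Control.

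**Figure D1:**
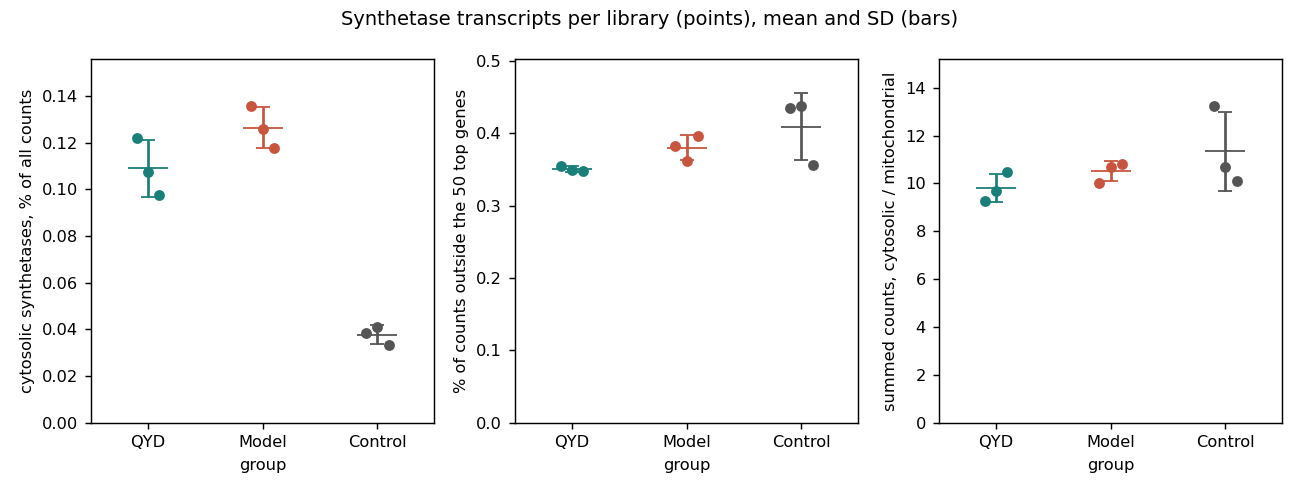
Cytosolic synthetase counts as a percentage of all counts (left) and of counts outside the 50 most abundant genes (middle), and the ratio of summed cytosolic to summed mitochondrial synthetase counts (right). Points are libraries, bars are the mean and SD of 3 mice; the QYD and Model points stand above Control on the left only.

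Levels were compared between genes in FPKM. Wars, the tryptophanyl enzyme, was the most abundant member in every group. Its FPKM was 75.7, 76.2 and 52.6 in QYD, 76.5, 106.0 and 100.2 in Model, and 12.9, 25.8 and 16.5 in Control. Gars, the glycyl enzyme, was next by group mean at 39.7, 44.98 and 13.4 FPKM in QYD, Model and Control, and its Control libraries (11.2 to 15.6 FPKM) overlapped those of Wars. Pars2, the mitochondrial prolyl enzyme, was the lowest at 0.477, 0.603 and 0.120 FPKM. The median cytosolic member had 13.8 FPKM in QYD, 14.8 in Model and 5.21 in Control. The median mitochondrial member had 1.62, 1.91 and 0.622 FPKM in the same order. Iars2, the isoleucyl enzyme, was the highest mitochondrial member in QYD (10.3 FPKM) and Model (10.8 FPKM), while Fars2, the phenylalanyl enzyme, was the highest in Control (2.98 FPKM).

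The order of the members shifted between groups. Yars, the tyrosyl enzyme, ranked 22 of 36 by FPKM in QYD, 20 in Model and 14 in Control. Rars, the arginyl enzyme, ranked 7 in QYD, 7 in Model and 13 in Control, and Qars, the glutaminyl enzyme, ranked 3, 3 and 7. Neighbours in these orders often overlap in their libraries. Vars, the valyl enzyme, and Kars, the lysyl enzyme, are such a pair in Control, with 9.88 to 14.4 FPKM for Vars and 11.01 to 12.01 FPKM for Kars.

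**Figure D2:**
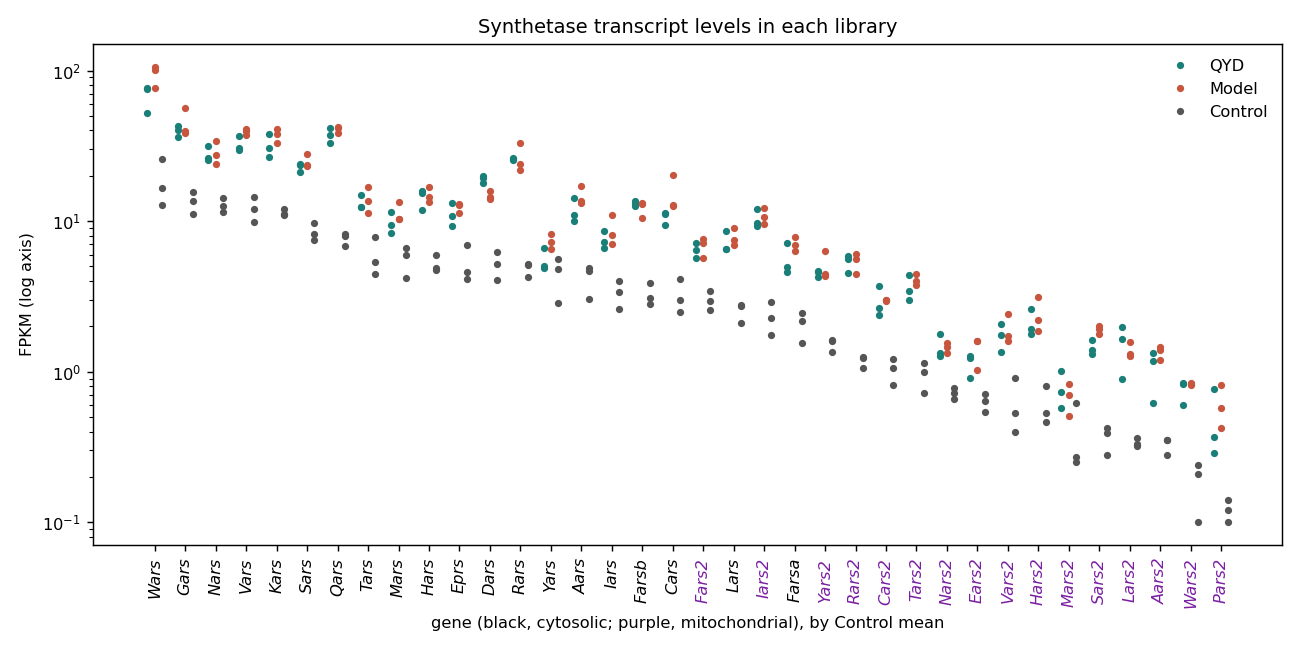
FPKM of each synthetase gene (log axis) in each library, ordered by the Control mean, with QYD left of Model and Model left of Control for each gene. Wars has the highest and Pars2 the lowest group means, and most mitochondrial genes (purple) lie to the right.

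The first comparison, of Model with Control, asks how induced pancreatitis altered the synthetase transcripts. On the TMM scale 17 of the 36 members were lower and none was higher, while on library totals 35 of 36 were higher and none was lower. Cytosolic members carried most of the lower calls, with 12 of 20, against 5 of 16 mitochondrial members. Over all genes tested, 21.3% were lower and 21.3% were higher on the TMM scale, and 94% were higher on library totals. The median log2 fold change was -0.50 over the cytosolic members and -0.11 over the mitochondrial members on the TMM scale, against 0.04 over all genes. The difference between the compartments was not tested. Without Control 45 the mitochondrial median was -0.32.

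**Figure D3:**
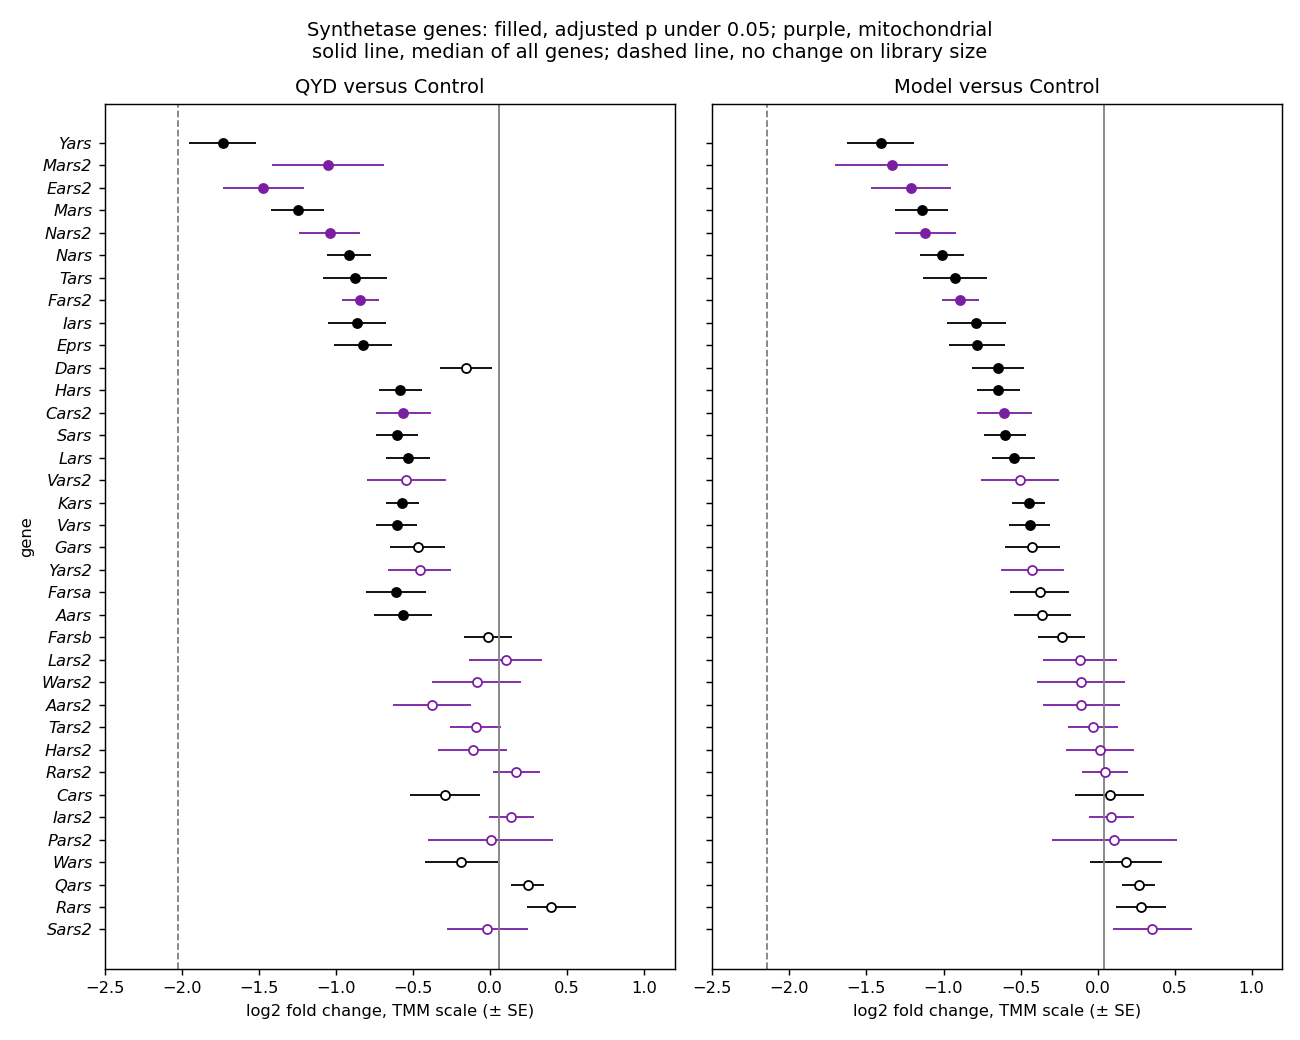
Log2 fold change of each synthetase gene on the TMM scale with its SE (edgeR, 3 mice a group), for QYD versus Control (left) and Model versus Control (right). Filled points have an adjusted p under 0.05, and all of them lie below the median of all genes (solid line) and above the point of no change on library totals (dashed line).

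Yars had the lowest value of all members. Its level on the TMM scale was 12.5, 10.2 and 13.3 CPM in Model and 36.8, 38.7 and 19.8 CPM in Control, a log2 fold change of -1.41 ± 0.22 (SE; edgeR quasi-likelihood test, Benjamini-Hochberg adjusted p = 0.000485). The groups did not overlap, and Control 45 lay nearest to the Model libraries. On library totals the gene was 0.75 log2 units higher in Model (adjusted p = 0.00631), less than any other member, and Mars2 was the 1 member that did not pass as higher on that scale (0.83, adjusted p = 0.0584). Yars lies on chromosome 4, 129189734 to 129219240 (GRCm38.p6).

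Among the 8 synthetases of the multi-synthetase complex, 6 were lower on the TMM scale and the median was -0.59, beside 21.3% of all genes lower. All 8 were higher on library totals, as were 94% of all genes. Mars, the methionyl enzyme that charges the initiator tRNA (chromosome 10, 127296221 to 127311786), had 20.9, 16.6 and 19.1 CPM in Model and 46.7, 48.1 and 30.0 CPM in Control. That gave a log2 fold change of -1.14 ± 0.17 (adjusted p = 0.000413), with no overlap of the groups. Iars (isoleucyl, -0.79 ± 0.19), Eprs (the fused glutamyl and prolyl enzyme, -0.78 ± 0.18) and Dars (aspartyl, -0.64 ± 0.17) were lower by less. Lars, the leucyl enzyme that also senses leucine for mTORC1, had -0.54 ± 0.14, and Kars had -0.45 ± 0.11. Kars makes the lysyl enzyme of both compartments from a single gene. Its levels were 40.6, 45.7 and 42.8 CPM in Model and 59.8, 61.0 and 55.2 CPM in Control, again without overlap (adjusted p = 0.00658).

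The remaining 2 members of the complex, Rars and Qars, did not pass and had positive values. Qars (chromosome 9, 108508005 to 108515941) had 55.0, 56.4 and 60.7 CPM in Model and 45.2, 49.9 and 47.9 CPM in Control. Its groups did not overlap, and the log2 fold change of 0.27 ± 0.11 had an adjusted p of 0.0623. With DESeq2 the adjusted p was 0.0147 and with limma-voom 0.0459. Rars had 36.5, 27.5 and 28.9 CPM in Model and 28.9, 21.8 and 25.9 CPM in Control, with overlap and a log2 fold change of 0.28 ± 0.16 (adjusted p = 0.188).

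Of the 12 other cytosolic members, 6 were lower on the TMM scale, with a median of -0.43, beside 21.3% of all genes lower. All 12 were higher on library totals, as were 94% of all genes. After Yars came Nars, the asparaginyl enzyme (chromosome 18, 64499655 to 64516515), with 47.0, 39.5 and 39.8 CPM in Model and 100.1, 81.5 and 73.1 CPM in Control. Its log2 fold change was -1.01 ± 0.14 (adjusted p = 0.000287), and the groups were well apart. Tars (threonyl, -0.93 ± 0.21), Hars (histidyl, -0.64 ± 0.14), Sars (seryl, -0.60 ± 0.14) and Vars (-0.44 ± 0.13) also passed. The Vars call was lost without Control 44 (-0.31, adjusted p = 0.0662), Model 56 (-0.42) or Model 57 (-0.42).

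The 6 members of this group that did not pass were Gars, Farsa, Aars, Farsb, Cars and Wars. Gars, which like Kars serves both compartments, had 70.3, 51.7 and 57.5 CPM in Model and 98.1, 78.95 and 63.7 CPM in Control, with overlap (-0.42 ± 0.18, adjusted p = 0.0781). It passed without Control 45 (-0.56) or without Model 56 (-0.55). Aars, the alanyl enzyme, had -0.36 ± 0.19 and passed without Control 45 (-0.57), the library with 25.4 CPM where Control 43 and Control 44 had 44.2 and 42.7. Farsa and Farsb, the alpha and beta subunits of the phenylalanyl enzyme, had -0.38 ± 0.19 and -0.23 ± 0.15, and Farsa passed without Control 44 (-0.56). Cars, the cysteinyl enzyme, had 0.08 ± 0.22. Wars had 106.0, 152.3 and 168.3 CPM in Model and 94.4, 173.9 and 107.0 CPM in Control, a log2 fold change of 0.18 ± 0.24 with wide overlap.

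The 10 cytosolic members of enzyme class I and the 10 of class II, the 2 structural families of synthetases, had 6 lower calls each on the TMM scale. Their medians were -0.49 and -0.52, and 21.3% of all genes were lower. On library totals all 10 of each class were higher, as were 94% of all genes. Eprs, which joins an enzyme of each class, was counted in class I.

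In the mitochondrial set, lower calls fell on Mars2 (methionyl), Ears2 (glutamyl), Nars2 (asparaginyl), Fars2 and Cars2 (cysteinyl). Fars2 (chromosome 13, 36117428 to 36537595) had 6.98, 6.73 and 6.24 CPM in Model and 11.5, 13.2 and 12.3 CPM in Control, a log2 fold change of -0.89 ± 0.12 (adjusted p = 0.000231). Its groups were tight and apart, and this was the smallest adjusted p of any member. Nars2 had 1.89, 1.73 and 1.93 CPM in Model and 3.77, 3.95 and 4.32 CPM in Control (-1.12 ± 0.20). Ears2 had 2.55, 1.85 and 3.38 CPM in Model and 5.87, 7.51 and 4.58 CPM in Control (-1.21 ± 0.26). Neither pair of groups overlapped.

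The Mars2 and Cars2 calls were less firm. Mars2 had 1.26, 1.10 and 0.931 CPM in Model and 4.75, 1.78 and 1.91 CPM in Control, so that Control 43 stood far above the other Control libraries. The log2 fold change of -1.34 ± 0.37 became -0.74 without that library (adjusted p = 0.0829). Cars2 (-0.60 ± 0.18, adjusted p = 0.0199) lost its call without Control 44, Control 45, Model 56 or Model 57, with values between -0.58 and -0.53.

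The other 11 mitochondrial members did not pass. Vars2 (valyl) had -0.50 ± 0.25 and Yars2 (tyrosyl) had -0.42 ± 0.20. Lars2 (leucyl), Wars2 (tryptophanyl) and Aars2 (alanyl) each had -0.11, and Tars2 (threonyl) had -0.03. Hars2 (histidyl), Rars2 (arginyl), Iars2 and Pars2 had values of 0.02, 0.05, 0.09 and 0.11. Sars2, the seryl enzyme, had the highest value of all 36 members, with 1.89, 1.82 and 2.35 CPM in Model and 1.40, 1.91 and 1.40 CPM in Control (0.36 ± 0.26). Its groups overlapped, and it rested on 10 to 15 counts a library in Control.

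Depth limits the mitochondrial set most, since all 16 genes together had 582 to 779 counts in a Control library and Pars2 had 5 to 8. The p-values weigh each group difference against the spread between these mice. The base of each comparison with Control is 3 Control mice whose synthetase levels differ from each other. On the TMM scale 16 of 16 acinar markers were lower in Model (median log2 fold change -3.02), as were 7 of 8 islet markers, beside 21.3% of all genes. On library totals 12 acinar markers were lower and 3 were higher, while 35 of the 36 synthetases and 94% of all genes were higher. None of the islet markers was lower and 3 were higher on that scale. Neutrophil markers were higher, with 7 of 8 tested on the TMM scale, beside 21.3% of all genes, and 8 of 8 on library totals. The part of these cell types in the synthetase result was not tested.

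For 15 cytosolic genes there is a mitochondrial gene for the same amino acid, with Fars2 set against both Farsa and Farsb. In Model versus Control the cytosolic value was below the mitochondrial one in 7 of these pairs and above it in 8, with a median difference in log2 fold change of 0.06. In QYD versus Control it was below in 10 pairs and above in 5, with a median difference of -0.19 and a range of -1.28 (Yars against Yars2) to 0.83 (Farsb against Fars2). In Model versus Control the widest gaps were Yars against Yars2 (-0.98), Sars against Sars2 (-0.95) and Tars against Tars2 (-0.90) at one end, and Cars against Cars2 (0.68) and Farsb against Fars2 (0.66) at the other. The count ratio of Yars to Yars2 was 2.44, 2.80 and 3.10 in Model and 5.60, 6.47 and 4.00 in Control. That of Sars to Sars2 was 28.8, 25.7 and 23.3 in Model and 57.8, 46.3 and 47.6 in Control. Both ratios lay lower in every Model library. For asparagine and methionine both genes were lower, and the pair differed by 0.11 for Nars against Nars2 and by 0.20 for Mars against Mars2.

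**Figure D4:**
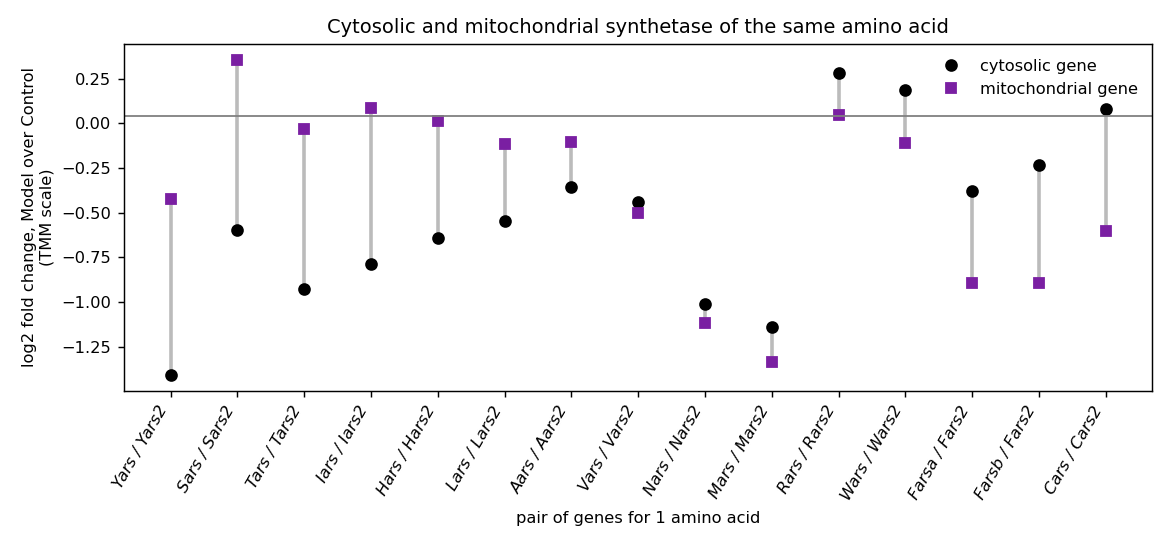
Log2 fold change of Model over Control on the TMM scale for the cytosolic (circles) and mitochondrial (squares) gene of the same amino acid, ordered by their difference. The grey horizontal line is the median of all genes; Yars lies 0.98 below Yars2 at the left and Cars lies 0.68 above Cars2 at the right.

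QYD versus Control addresses how decoction-treated pancreatitis differs from saline tissue. It shares the Control libraries with the comparison above, so the values stand side by side and are not independent. On the TMM scale 18 of 36 members were lower and none was higher, while on library totals 34 were higher and none was lower. The lower calls were 13 of 20 cytosolic and 5 of 16 mitochondrial members. Over all genes, 20.3% were lower and 20.5% were higher on the TMM scale, and 93.8% were higher on library totals. The medians were -0.58 for cytosolic and -0.25 for mitochondrial members, against 0.06 for all genes. The mitochondrial median depended on single libraries, with -0.44 without Control 45, -0.12 without Control 44 and -0.13 without QYD 68.

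Yars was again the lowest member, with 10.0, 8.85 and 9.68 CPM in QYD and the Control levels given above (-1.74 ± 0.22, adjusted p = 0.000185). On library totals Yars (0.31, adjusted p = 0.204) and Ears2 (0.57, adjusted p = 0.0735) were the 2 members that did not pass as higher. Ears2 had 2.37, 2.21 and 1.86 CPM in QYD (-1.47 ± 0.26), Mars had 18.01, 17.3 and 17.2 (-1.25 ± 0.17), and neither overlapped Control. Nars2 had -1.04 ± 0.20 and Nars had -0.92 ± 0.14. Kars had 41.5, 38.7 and 38.3 CPM in QYD (-0.57 ± 0.11), below every Control library. Gars had 53.9, 53.2 and 66.7 CPM, overlapping Control 45 (-0.47 ± 0.18, adjusted p = 0.0556), and passed without Control 45 (-0.61), Model 56 (-0.47) or QYD 68 (-0.58).

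Lower as well were Tars (-0.88 ± 0.21), Iars (-0.86 ± 0.19), Fars2 (-0.84 ± 0.12), Eprs (-0.83 ± 0.19), Vars (-0.61 ± 0.13), Sars (-0.60 ± 0.14), Hars (-0.58 ± 0.14) and Lars (-0.53 ± 0.14). Dars did not pass and had 23.3, 26.6 and 27.5 CPM in QYD, within the Control range of 21.9 to 36.8 CPM (-0.16 ± 0.17, adjusted p = 0.482). Aars (-0.57 ± 0.19, adjusted p = 0.0323) and Farsa (-0.61 ± 0.19, adjusted p = 0.0266) overlapped Control, and their calls were lost without any of 5 and any of 4 single libraries, among them Control 43 (-0.43 and -0.41). Mars2 (-1.05 ± 0.36, adjusted p = 0.0383) had -0.46 without Control 43 and lost its call also without any QYD library. The Lars call was lost without QYD 66 (-0.48) and Cars2 (-0.56 ± 0.18) without QYD 66, QYD 68, Control 44 or Control 45. The highest values were those of Rars (0.40 ± 0.16, adjusted p = 0.0706), Qars (0.24 ± 0.11, adjusted p = 0.0874), Rars2 (0.17 ± 0.15), Iars2 (0.14 ± 0.15) and Lars2 (0.10 ± 0.24). Rars had 28.6, 34.3 and 38.0 CPM in QYD, which overlapped Control, and passed as higher without QYD 65 (0.50). The other members that did not pass had values between -0.54 (Vars2 ± 0.26) and 0.00 (Pars2 ± 0.41), and Vars2 passed without Control 43 (-0.74). On the TMM scale 14 of 16 acinar and 7 of 8 islet markers were lower in QYD, beside 20.3% of all genes. On that scale 6 of 8 neutrophil markers were higher, beside 20.5% of all genes. On library totals 11 acinar markers were lower and 3 were higher, 2 islet markers were lower, and 7 neutrophil markers were higher. Of all genes, 93.8% were higher there. Their part in these calls was not tested.

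QYD versus Model addresses what the decoction changed in pancreatitis, and no member passed. None of the 12828 genes did (0%) by edgeR, while 750 (5.85%) had an unadjusted p under 0.05. Among the members only Dars was under that unadjusted threshold. Dars had 23.3, 26.6 and 27.5 CPM in QYD and 18.3, 17.4 and 19.5 CPM in Model, without overlap, and a log2 fold change of 0.49 ± 0.16 (edgeR quasi-likelihood test, unadjusted p = 0.012 and Benjamini-Hochberg adjusted p = 0.826). The next highest values were those of Mars2 (0.28 ± 0.34), Farsb (0.22 ± 0.15), Lars2 (0.21 ± 0.21) and Rars2 (0.12 ± 0.13).

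At the low end, Sars2, Cars and Wars each had -0.37, with SE of 0.22, 0.22 and 0.24. Yars had -0.33 ± 0.21, and all 3 QYD libraries (8.85 to 10.0 CPM) lay below the lowest Model library (10.2 CPM). Aars2 had -0.27 ± 0.22. Wars overlapped between groups, with 107.8, 124.5 and 97.1 CPM in QYD and 106.0, 152.3 and 168.3 CPM in Model. The medians were -0.05 for cytosolic and -0.01 for mitochondrial members, against 0.01 for all genes. By DESeq2 and limma-voom no member passed either.

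Reads of overlapping genes could be shared where the strandedness of the counting is not given. In GENCODE M21 the exons of other genes cover 32.2% of the exonic bases of Iars2 (2010103J01Rik and Rab3gap2, on the opposite strand), 23.1% of those of Aars (Exosc6, on the same strand) and 11.3% of those of Farsb (Sgpp2, on the opposite strand). Hars and Hars2 lie head to head, and 195 of their exonic bases overlap on opposite strands. For Mars the overlap was 2.29%, with Ddit3.

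Promoter windows from RefSeq (GRCm38.p6, 250 bases before to 50 after the start) were matched for 27 members, 13 cytosolic and 14 mitochondrial. The C/EBP-ATF composite element that ATF4 binds, searched as TGATGNAA on both strands, was found for 5 of the 13 cytosolic and 0 of the 14 mitochondrial members. Of all 27025 genes with such windows, 4.51% held it in at least 1 window, and 3.97% of the 32851 windows did. The windows below are shown because they carry matches of these 5 genes, in capitals, on the strand of the gene, and a match that ends in CATCA is the element read from the opposite strand.
Yars (chr4:129189895-129189924, +): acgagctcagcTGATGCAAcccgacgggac
Gars (chr6:55037960-55037989, +): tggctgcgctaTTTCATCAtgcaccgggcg
Aars (chr8:111033840-111033869, +): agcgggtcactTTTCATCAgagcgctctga
Iars (chr13:49682126-49682155, +): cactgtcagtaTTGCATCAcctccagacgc
Tars (chr15:11399655-11399684, -): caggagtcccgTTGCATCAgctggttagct
Counted from the start base of the promoter table as position 1, the match begins at 4 in Yars, 8 in Iars, 10 in Aars, -15 in Tars and -30 in Gars. Of these genes Yars, Iars and Tars were lower in Model versus Control on the TMM scale, and Gars and Aars did not pass. A match is a description of the letters and no evidence of binding.

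Of the other motifs searched, the E-box CACGTG lay in the windows of Aars, Farsb, Iars, Tars and Ears2 (8.09% of all genes), overlapping none of the elements printed above. The STAT element TTCNNNGAA lay in Aars, Kars and Nars2 (9.55%), the interferon-stimulated element in Qars (3.99%), and the ER stress element in none of the 27 (0.137%).

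Genes around the synthetases were counted in lists. Of 28 ATF4 and amino acid response genes, 19 were lower and 3 were higher in Model versus Control on the TMM scale. Over all genes, 21.3% were lower and 21.3% were higher. The list had a median log2 fold change of -1.14. On library totals 22 of the 28 were higher and 1 was lower, where 94% of all genes were higher. The median of the list was 1.02 on that scale, against 2.19 over all genes. Pycr1, of proline synthesis, had 5.22 ± 0.761 CPM in Model and 43.6 ± 14.0 CPM in Control (SD, n = 3 each), a log2 fold change of -3.06 ± 0.23, and was lower on library totals too (-0.91). Asns, which makes asparagine, had 106.0 ± 8.41 CPM in Model and 279.1 ± 46.7 CPM in Control (-1.40 ± 0.16). Phgdh, of serine synthesis, had -1.84 ± 0.21, and Cth, of cysteine synthesis, had -2.61 ± 0.33. In QYD versus Control 20 were lower and 1 was higher on the TMM scale, with a median of -1.18, beside 20.3% and 20.5% of all genes. On library totals 20 were higher and 3 were lower, where 93.8% of all genes were higher. The median was 0.85 there, against 2.09 over all genes.

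The kinases that sense uncharged tRNA and other stresses through eIF2 alpha were counted together with Gcn1l1. On the TMM scale 2 of 5 genes of this list were lower and 1 was higher in both Model and QYD against Control. Beside them, 21.3% of all genes were lower and 21.3% higher in Model, and 20.3% and 20.5% in QYD. On library totals all 5 were higher in both, as were 94% and 93.8% of all genes. Gcn1l1, the co-activator of the tRNA-sensing kinase, had -0.98 ± 0.15 in Model versus Control, and Eif2ak3, the kinase of the endoplasmic reticulum, had -0.92 ± 0.16. Eif2ak2, the kinase that responds to double-stranded RNA, was higher (0.92 ± 0.21). The tRNA-sensing kinase itself, Eif2ak4, did not pass (-0.13 ± 0.15).

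Partners of the cytosolic synthetases in translation held lower calls only on the TMM scale, and in Model versus Control all of those tested were higher on library totals. Over all genes, 21.3% were lower on the TMM scale and 94% were higher on library totals in that comparison. In QYD versus Control 20.3% of all genes were lower on the TMM scale. Of the 3 scaffold proteins, Aimp1 (-0.49 ± 0.13) and Aimp2 (-0.54 ± 0.17) were lower in Model versus Control, and Eef1e1 did not pass (-0.41 ± 0.34). In QYD versus Control Aimp2 alone of these passed (-0.61 ± 0.17). All 5 cytosolic elongation factors, which with their exchange factors carry charged tRNA to the ribosome or move it there, were lower in Model and in QYD, with medians of -0.76 and -0.75. Eef1b2 had 150.8 ± 1.19 CPM in Model and 314.9 ± 13.0 CPM in Control (-1.06 ± 0.13). Of 7 tRNA editing and recycling enzymes, 4 were lower in Model, among them Aarsd1, which clears wrongly charged alanine tRNA (-0.90 ± 0.20), and 2 were lower in QYD.

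Mitochondrial tRNA and translation factors had calls in both directions on the TMM scale. In Model versus Control 6 of 21 were lower and 3 were higher, with a median of -0.12, beside 21.3% of all genes in each direction. In QYD versus Control 5 were lower and 2 were higher, with a median of -0.10, beside 20.3% and 20.5% of all genes. On library totals all 21 were higher in both comparisons, beside 94% and 93.8% of all genes. Hsd17b10 (-1.48 ± 0.11) and Trmt10c (-1.30 ± 0.24), which belong to the mitochondrial RNase P, were lower in Model.

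Wars is a known interferon gamma target, and 15 other genes of that response were tested. In Model versus Control 6 were higher and none was lower on the TMM scale, with a median of 1.11. In QYD versus Control 6 were higher and none was lower, with a median of 0.94. Over all genes, 21.3% and 20.5% were higher in the same order. On library totals 14 were higher in both, with medians of 3.26 and 3.03, where 94% and 93.8% of all genes were higher. Psmb8, an immunoproteasome subunit, had 28.8 ± 9.31 CPM in Model and 6.744 ± 2.447 CPM in Control (2.09 ± 0.34), and Tap1, a peptide transporter, had 1.74 ± 0.31. Wars did not pass in either comparison on the TMM scale (0.18 ± 0.24 and -0.19 ± 0.24). By limma on log2(FPKM + 1), against the median gene, it passed as higher in Model versus Control (0.92, adjusted p = 0.00501). That call depended on the pseudocount, and Wars did not pass against the median gene with a pseudocount of 0.1 or on library totals. It did not pass by DESeq2 or limma-voom either. In QYD versus Model no gene of any of these lists passed.

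**Figure D5:**
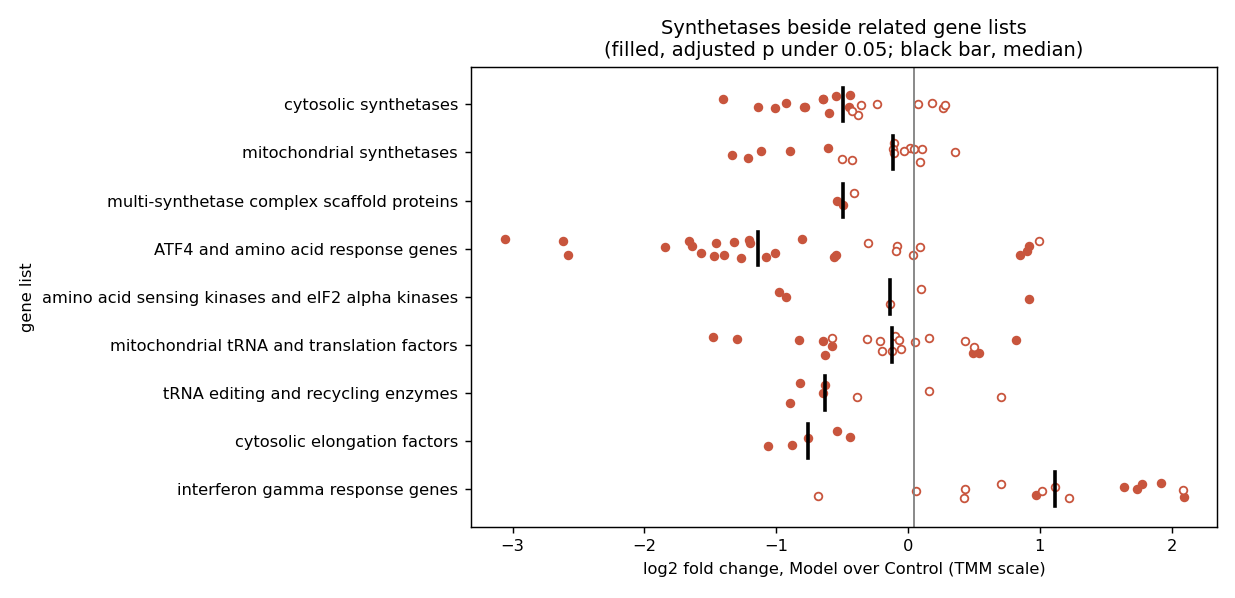
Log2 fold change of Model over Control on the TMM scale for the synthetases and for related gene lists; each point is a gene, filled where the adjusted p is under 0.05, and the black bar is the list's median. The ATF4 and amino acid response list has a median of -1.14 and the interferon gamma list of 1.11, with the grey line at the median of all genes.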

How the data were processed

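Polyadenylated RNA of mouse pancreas was sequenced from 9 animals, 3 a group. Per the submitters' processing notes, HISAT2 2.0.4, Bowtie2 2.2.5, RSEM 1.2.12 and build GRCm38.p6 were used, with no role given for each tool. The sources used here do not give the strandedness. Per the file headers, the authors deposited read counts, taken here as estimated counts because 93.5% were whole numbers. The authors also deposited FPKM, scaled by gene length and library total per the file headers, and TPM and group means, which were not used.

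Rounded estimated counts of all 9 libraries went into one edgeR 4.0.16 quasi-likelihood model (R 4.3.3) with group as its only term and 6 residual degrees of freedom. TMM scaling and edgeR's default expression filter were used, and the filter kept 12828 genes and removed 4304. Benjamini-Hochberg adjustment ran over all genes tested, with a threshold of 0.05. Each SE is the absolute log2 fold change over the square root of F. Depth was 19112923 to 20212744 counts a library, with a common biological coefficient of variation of 0.175. Replicate libraries differed by more than sampling noise in every pair. The script was tested on simulated data.

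Members and gene lists were chosen with earlier results of these data known. Every member is named, with values per library for the 5 highest and 5 lowest where space allowed, for Kars and Gars and for selected pairs. Of each other list, up to 4 genes with the smallest p and at least 1 CPM could be named. Sums over members were described without a test. A further promoter match is not reported here. Alternatives were other scalings and filters, DESeq2 1.42.0, limma 3.58.1 (voom, and FPKM on a log2 scale with a pseudocount of 1 or 0.1, keeping genes that reach an FPKM of 1 in 3 samples, or all genes), only the compared groups, and each library left out.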

Additional observations from a re-analysis of the deposited data

How the results depend on the processing

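RLE scaling and TMM without the 50 most abundant genes changed no call of a member, and no alternative called a member in QYD versus Model. Library totals and FPKM, which keep the composition difference, turned the direction. In Model versus Control the lower calls became 0 in both compartments on library totals and in all 3 FPKM settings. The higher calls, 0 by TMM, became 20 cytosolic in each of these settings, and 15, 13, 13 and 15 mitochondrial on library totals, log2(FPKM + 1), log2(FPKM + 0.1) and log2(FPKM + 1) without a filter. Most genes were called in these settings. In the same order, 12185 of 12828, 10083 of 10382, 10086 of 10382 and 12653 of 17132 genes passed in either direction. In that order the cytosolic median became 1.66, 1.42, 1.64 and 1.42 and the mitochondrial median 2.04, 0.97, 1.76 and 0.91. The median of all genes was 2.19, 1.41, 2.06 and 0.91. The cytosolic median thus lay below the typical gene on library totals and log2(FPKM + 0.1), near it on log2(FPKM + 1) and above it without a filter. The mitochondrial median lay below the typical gene except without a filter, where it was near it. In QYD versus Control the lower calls became 0, and the higher calls 19 cytosolic in each and 15, 13, 13 and 16 mitochondrial. Over all genes, 12155 of 12828, 10077 of 10382, 10071 of 10382 and 12528 of 17132 passed in either direction. The medians became 1.46, 1.32, 1.45 and 1.32 (cytosolic) and 1.80, 0.90, 1.51 and 0.86 (mitochondrial), against 2.09, 1.33, 1.96 and 0.85 over all genes.

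With at least 5 CPM in 3 samples, 9 mitochondrial members were tested and 2 were lower in each comparison with Control. DESeq2 and limma-voom called 1 cytosolic member higher in each comparison with Control (Qars), and no filter called 1 in QYD versus Control (Rars). In QYD versus Control limma-voom lost the lower calls of Aars (-0.38) and Mars2 (-0.83), no filter and a fit of the compared groups alone lost Cars2 (-0.51 and -0.57), and DESeq2 and the 5 CPM filter gained Gars (-0.47 and -0.48). No filter lost Vars (-0.38) in Model versus Control. Leaving out single libraries gave 11 to 14 cytosolic lower calls in Model versus Control (12 with all libraries). In QYD versus Control it gave 10 to 14 (13 with all libraries), with 10 without QYD 66. It also gave 0 to 1 cytosolic higher and 3 to 5 mitochondrial lower calls in QYD versus Control. The mitochondrial median was then -0.32 to -0.0846 in Model versus Control. Leaving out single libraries gave a log2 ratio of cytosolic to mitochondrial counts of -0.18 to 0.0151 in Model versus Control (-0.10 with all libraries), positive without Control 43. In QYD versus Model this ratio was -0.10, and -0.0089 with medians over members. The log2 share of cytosolic members, 1.75 (Model versus Control) and 1.53 (QYD versus Control), became -0.10 and -0.22 outside the 50 most abundant genes and -0.40 and -0.50 on the TMM scale. The mitochondrial share, 1.85 and 1.73, became 5.9e-05 and -0.0164, and -0.30 and -0.30.

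For single members, library totals and FPKM were tested against the median gene, a choice made after seeing the data. By edgeR on library totals, Cars2 lost its lower call in Model versus Control (-0.65, adjusted p = 0.0586) and QYD versus Control (-0.61, adjusted p = 0.0773). In QYD versus Control Mars2 also lost its call (-1.07, adjusted p = 0.053), and Gars gained a lower call (-0.53, adjusted p = 0.0450). The other members kept their result on library totals. On log2(FPKM + 1) with the filter, 14 members kept their result in Model versus Control, 7 lost a lower call, 8 gained a call and 4 turned direction. Lost were Dars, Eprs, Hars, Iars, Lars, Nars and Tars. Cars (0.52), Qars (0.86), Rars (0.79), Wars (0.92) and Iars2 (0.43) passed as higher, and Aars2, Lars2 and Vars2 as lower. None of these 8 gained a call with a pseudocount of 0.1. In QYD versus Control 13 kept their result, 8 lost a lower call, 6 gained a call and 6 turned. The gained calls of that comparison were also absent with a pseudocount of 0.1. With and without the filter, Kars (0.21), Sars (0.0357), Vars (0.22) and Sars2 (-0.32) turned direction in Model versus Control. So did Dars (0.38), Farsb (0.40), Kars (0.0638), Sars (0.0021), Vars (0.0322) and Lars2 (-0.45) in QYD versus Control, and without the filter Pars2 (-0.90 and -0.94). With a pseudocount of 0.1 none of these turned, but Pars2 was not tested there, and Kars (-0.37, adjusted p = 0.0811) and Vars (-0.35, adjusted p = 0.102) lost their calls in Model versus Control, as did Lars (-0.49). Aars (-0.48), Farsa (-0.57), Lars (-0.49) and Cars2 (-0.56) lost theirs at that pseudocount in QYD versus Control. No paired analysis was possible because the groups share no animal numbers. Counts of 5 to 8 (Pars2, Control) limit the lowest members.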
